A study of Homo sapiens with 6 samples.

Results

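The genes described here are 47 genes of the DNA replication origin and fork, taken by symbol from a list; all 47 were among the 17721 genes of the deposited table and all 47 passed the filter on low counts. They were sorted by what their proteins do into 6 licensing genes, 14 genes of the helicase and its activation, 9 polymerase and primase genes, 6 clamp and clamp loader genes, 5 genes that handle single strands and Okazaki fragments, and 7 genes of fork chromatin and fork protection. RNA came from MDA-MB-231BR cells, a brain-seeking line derived from human MDA-MB-231 breast cancer cells. One group of 3 libraries was made from cells stably expressing a control shRNA, and the other group of 3 libraries from cells stably expressing an shRNA against ACSS2, the enzyme that makes acetyl-CoA from acetate in the nucleus and cytosol. Both groups received their short hairpin RNA by lentivirus and went through antibiotic selection. The labels call the libraries of a group biological replicates and do not say whether 1 hairpin or several were used, so an effect of losing ACSS2 and an effect of a hairpin on other transcripts cannot be told apart. The series asks what ACSS2 contributes to the growth of breast cancer in the brain, and its title names the E2F1 transcription factor.

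A cell copies its genome once per division from many origins. The origin recognition complex, CDC6 and CDT1 load the ring of MCM2 to MCM7 onto DNA before S phase. The kinase CDC7 with DBF4 and the factors CDC45 and GINS turn that ring into a moving helicase. DNA polymerases alpha, epsilon and delta then copy the strands, and the sliding clamp PCNA holds delta and epsilon to them. Many of these genes are textbook targets of E2F factors and are transcribed most strongly as cells enter S phase, so their mRNA in a culture is often read beside proliferation. In bulk RNA, fewer cells in a phase of the cycle and less RNA per cell cannot be told apart.

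Promoters are described first, because these genes are known for a shared promoter element that a transcript table alone does not show. The search itself was run after the comparisons below. RefSeq windows on GRCh38.p14, from 250 bases before to 50 bases after a transcript start, were at hand for 41 of the 47 genes. Either strand was searched for 4 words of 8 letters that fit the E2F consensus, TTTCCCGC, TTTGGCGC, TTTCGCGC and TTTGCCGC. At least 1 word was present for 21 of these 41 genes (51.2%), against 701 of the 10589 tested genes with a window (6.62%). Counted by window rather than by gene, 22 of 52 windows (42.3%) held a word, against 3.31% of all 35116 windows. A match is a description of letters and does not show that a factor binds there, and a missing match does not show that a site is lacking. The 100 bases before the start are printed below for 8 genes. RPA1 is shown because it had the smallest adjusted p without a block (below) and no match. The other 7 show where the word lies in genes of several roles, and all 7 were called lower in the fit with a block (below). Genes with a word in this stretch that were not called, such as GMNN and POLE, are not printed. The printed set therefore cannot show whether the word goes with the calls. Capitals mark the matched words, and each sequence reads 5′ to 3′ on the strand of its gene.
CDT1: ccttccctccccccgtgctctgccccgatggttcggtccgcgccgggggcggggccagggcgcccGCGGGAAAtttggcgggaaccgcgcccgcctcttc
MCM6: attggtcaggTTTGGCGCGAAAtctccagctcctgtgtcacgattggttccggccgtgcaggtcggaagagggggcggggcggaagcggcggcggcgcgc
GINS2: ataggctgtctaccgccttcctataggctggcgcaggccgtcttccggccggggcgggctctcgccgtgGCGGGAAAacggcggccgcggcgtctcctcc
PCNA: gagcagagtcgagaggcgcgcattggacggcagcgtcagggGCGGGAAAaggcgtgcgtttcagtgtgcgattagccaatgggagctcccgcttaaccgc
RFC3: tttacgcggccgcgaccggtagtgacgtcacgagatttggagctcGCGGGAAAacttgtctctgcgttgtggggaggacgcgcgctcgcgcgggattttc
RPA1: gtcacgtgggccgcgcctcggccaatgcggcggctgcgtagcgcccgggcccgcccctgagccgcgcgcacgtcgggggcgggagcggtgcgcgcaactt
UHRF1: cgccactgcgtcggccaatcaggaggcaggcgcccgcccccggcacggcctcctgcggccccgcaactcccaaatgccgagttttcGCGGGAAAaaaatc
DTL: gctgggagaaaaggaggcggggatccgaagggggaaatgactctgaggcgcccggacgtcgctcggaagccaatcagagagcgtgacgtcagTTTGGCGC

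The windows printed are chr16:88803689-88803788 for CDT1, chr2:135876444-135876543 for MCM6, chr16:85688955-85689054 for GINS2 and chr20:5126623-5126722 for PCNA. Those of the other genes are chr13:33818049-33818148 for RFC3, chr17:1829905-1830004 for RPA1, chr19:4909401-4909500 for UHRF1 and chr1:212035648-212035747 for DTL. MCM6, GINS2 and PCNA lie on the minus strand and the others on the plus strand. The match begins 8 bases before the start in DTL and 14 in UHRF1, and farther out, at 59 bases, in PCNA and at 90 in MCM6, where a pair of words overlap in reverse orientation. By role, 8 of 11 helicase genes with a window held a word, 3 of 6 licensing genes, 4 of 8 polymerase genes, 2 of 6 clamp genes, 1 of 3 strand genes and 3 of 7 fork chromatin genes. CCAAT, the letters of the box that NF-Y binds, was found for 25 of the 41 genes (61.0%) and for 43.4% of the tested genes. TTTGAA, the letters of the element known from promoters of mitotic genes, was found for 1 of the 41, DBF4, and for 13.9% of the tested genes.

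Total counts lay between 15048275 and 18608104 per library, and the 47 genes took between 0.106% and 0.289% of them. The count of a single gene in a single library ranged from 42 to 5700. VIM, the mesenchymal filament typical of MDA-MB-231, was at 5449 to 6820 TPM (a unit per transcript length), and CDH1, which this line lacks, had counts of 0 in 5 libraries and of 2 in the last. Summed TPM of markers of other cells ranged from 4.04 to 6.73 in control and from 4.62 to 8.34 in ACSS2 shRNA libraries for immune cells (7 of 9 genes listed), from 1.81 to 2.5 and from 2.76 to 7.44 for endothelium (5 of 5), and from 0.99 to 1.23 and from 1.47 to 1.65 for fibroblasts (5 of 5). For neural cells (6 of 7) they ranged from 48.5 to 102.6 in control and from 36.5 to 82.4 in ACSS2 shRNA libraries, most of it from MBP. Several single markers were called in the fit with a replicate block described below. CDH5 of the endothelial list (1.79, adjusted p = 0.00394) and CD14 of the immune list (1.3008, adjusted p = 0.00711) were higher with the ACSS2 shRNA. SYT1 (-1.44, adjusted p = 0.000793), RBFOX3 (-0.82, adjusted p = 0.00221) and MBP (-0.41, adjusted p = 0.0220) of the neural list were lower, as was CD44 of the list for the line itself (-0.57, adjusted p = 0.00598). No fibroblast marker was called, and no marker was at 0 in all 6 libraries. The part of these markers in the results was not tested.

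ACSS2 itself was at 76.3, 71.2 and 163.6 CPM in the control libraries numbered 1, 2 and 3, and at 11.1, 50.5 and 88.7 CPM in the ACSS2 shRNA libraries in the same order. That order is kept for all values per library below. CPM here are counts scaled to library size with TMM factors, and all levels below are on that scale unless TPM is named. The groups overlapped, since ACSS2 shRNA replicate 3 was above control replicates 1 and 2. The log2 fold change, ACSS2 shRNA over control, was -1.05 (SE 0.64, adjusted p = 0.504 in edgeR). Libraries with the same number deviated together from their group means, with correlations across genes of 0.716, 0.494 and 0.740, so the same test was also run with the replicate number as a block. With the block the value for ACSS2 was -1.31 (SE 0.30, adjusted p = 0.00757), and DESeq2 with the block gave -1.38 with an adjusted p of 0.126.

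Without the block, none of the 47 genes was called lower or higher at an adjusted p under 0.05, where 0.0461% of 13003 tested genes were called lower and 0.0231% higher. At an unadjusted p under 0.05 there were 6 of the 47 (12.8%), all lower, where 7.11% of tested genes were lower at that level and 14.0% were lower or higher. With the block, 28 of the 47 (59.6%) were called lower, where the share was 12.4% of tested genes, and none was called higher, where it was 12.7%. The remaining 19 did not pass. With the block the log2 fold change was below 0 in 46 of the 47 genes, POLD3 being the exception, and its median was -0.52, beside 0.02 over all genes tested. Without the block the median was -0.58, also beside 0.02.

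The fits differed in the spread left over, since the block takes out the differences between replicate numbers. Standard errors of the 47 log2 fold changes ran from 0.18 to 0.81 without the block and from 0.12 to 0.23 with it. The groups overlapped in most of the 47 genes. All 3 ACSS2 shRNA libraries were below all 3 control libraries for ORC2, PRIM2, POLD2, RPA1 and RPA3, which is 5 of 47 (10.6%) beside 9.63% of tested genes. That count depends on the scale: on TPM the groups stayed apart for ORC2 and RPA1 alone, 2 of 47 (4.26%) beside 6.41% of tested genes. Overlap is given on CPM below unless TPM is named. No gene of the 47 was higher without overlap, where 10.7% of tested genes were. Within each replicate number the ACSS2 shRNA library was below its control in all 3 pairs for 28 of 47 genes (59.6%), beside 27.3% of tested genes, and above it in all 3 for none, beside 30.5%. These are not the same 28 genes as those called lower with the block: 24 of the 47 (51.1%) were both, beside 12.2% of tested genes.

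**Figure D1:**
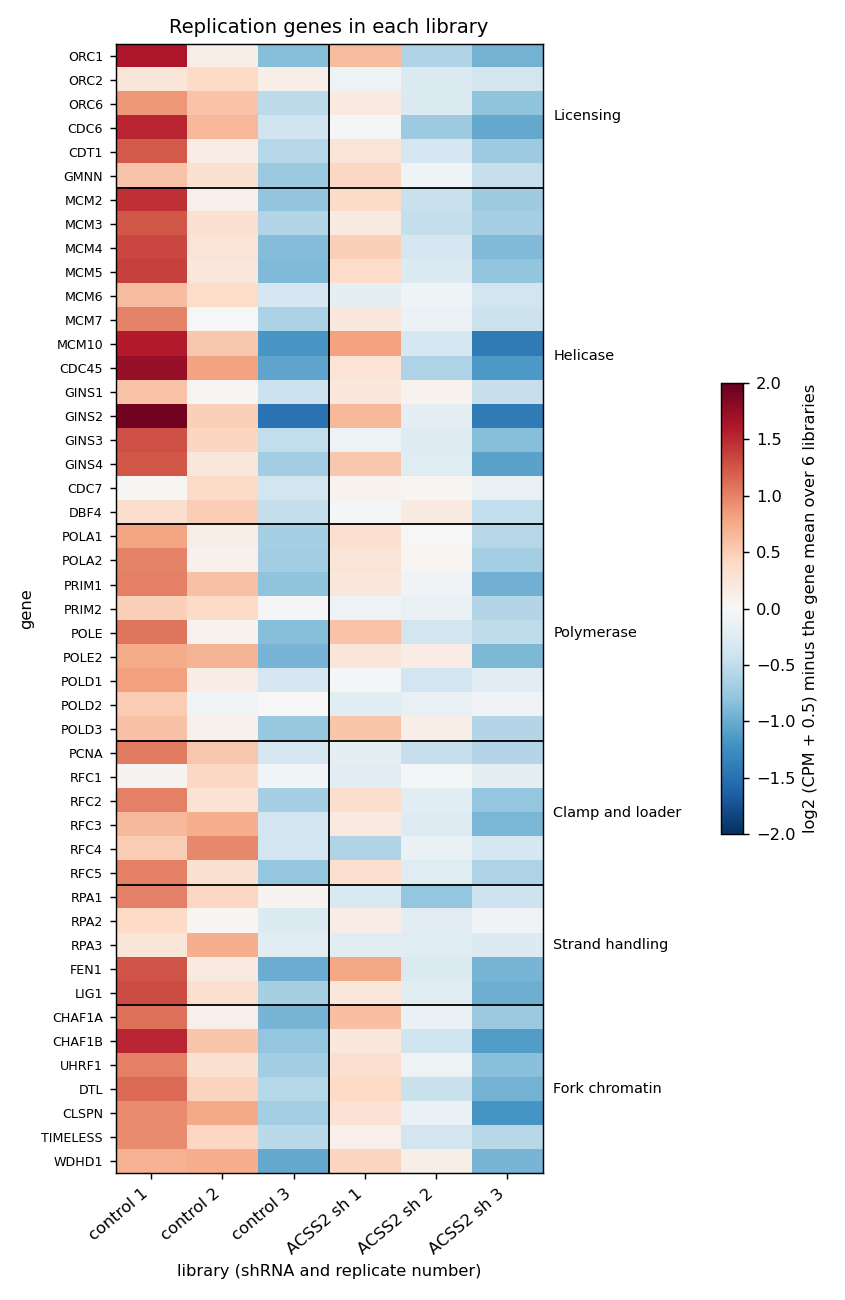
Heat map of the 47 genes (rows, by role) in the 6 libraries (columns); colour is log2 (CPM + 0.5) minus the mean of the gene over the 6 libraries. Control replicate 1 is the highest library in most rows and the replicates numbered 3 are low in both groups, so that control replicate 3 and ACSS2 shRNA replicate 3 look alike.

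Licensing genes gave 5 of 6 called lower with the block (median log2 fold change -0.61). Beside this count and those of the role groups below stands the share of 12.4% of tested genes called lower. CDC6 (gene ID 990, chromosome 17, 40219430 to 40304657 on GRCh38 as the deposited table gives it), the ATPase that with CDT1 loads the MCM ring, had the largest difference of all 47 genes. It was at 69.1, 38.0 and 18.0 CPM in control and at 23.2, 14.2 and 11.4 CPM in ACSS2 shRNA libraries, and the groups overlapped because control replicate 3 was below ACSS2 shRNA replicate 1. Its log2 fold change was -1.24 with the block (SE 0.17, adjusted p = 0.000344), a 2.37-fold difference, and -1.36 without it (SE 0.47, adjusted p = 0.259). ORC6, a subunit of the origin recognition complex, was at 18.8, 15.2 and 6.91 CPM against 11.5, 8.17 and 5.58 CPM (-0.66, SE 0.16, adjusted p = 0.0117 with the block). CDT1, the other loading factor, was at 106.4, 49.8 and 30.2 CPM against 53.9, 35.7 and 26.9 CPM (-0.56, SE 0.15, adjusted p = 0.0156 with the block). In both genes the 2 libraries numbered 3 were the lowest of their groups and the groups overlapped.

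Subunits of the origin recognition complex did not share a spread. ORC1, the subunit known to rise and fall with the cycle, was at 23.01, 7.93 and 3.75 CPM in control and at 11.4, 4.52 and 3.47 CPM in ACSS2 shRNA libraries (-0.71 with the block, adjusted p = 0.0194). ORC2, a core subunit, stayed between 17.2 and 21.2 CPM in control and between 12.2 and 14.8 CPM in ACSS2 shRNA libraries, with no overlap (-0.52, adjusted p = 0.0161 with the block and 0.281 without it). ORC1 and ORC2 were given levels here after their values were seen. GMNN, which encodes geminin, the inhibitor of CDT1, had the smallest difference of the group. It was at 31.7, 26.3 and 12.5 CPM in control and at 28.4, 19.8 and 15.2 CPM in ACSS2 shRNA libraries (-0.11, SE 0.15, adjusted p = 0.625 with the block). Its promoter window holds a CCAAT and an E2F-type word, as that of CDT1 holds the E2F-type word shown above.

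Helicase genes gave 10 of 14 called lower with the block (median -0.53). Among the ring subunits, MCM2 was at 159.0, 62.1 and 33.1 CPM in control and at 75.3, 41.9 and 35.0 CPM in ACSS2 shRNA libraries. MCM3 was at 137.0, 71.7 and 38.4 CPM against 65.5, 41.2 and 36.4 CPM, and MCM4 at 132.6, 62.7 and 28.5 CPM against 73.3, 41.2 and 28.2 CPM. MCM5 was at 117.7, 52.9 and 24.2 CPM against 58.3, 37.1 and 25.9 CPM. All 4 genes show the same order: control replicate 1 far above every other library, and the libraries numbered 3 close to each other. With the block their log2 fold changes were -0.54 for MCM2, -0.66 for MCM3, -0.51 for MCM4 and -0.50 for MCM5, with adjusted p of 0.0365, 0.00988, 0.0237 and 0.0468.

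MCM6 was at 36.3, 30.5 and 18.599 CPM in control and at 20.4, 22.2 and 18.1 CPM in ACSS2 shRNA libraries (-0.45, SE 0.15, adjusted p = 0.0453 with the block). MCM7 was at 304.0, 150.6 and 97.6 CPM against 175.5, 139.5 and 113.4 CPM, and it was the one ring subunit that did not pass (-0.23, SE 0.16, adjusted p = 0.314 with the block). The ACSS2 shRNA library of MCM7 was below its control in the pairs numbered 1 and 2 (log2 differences -0.79 and -0.11) and above it in the pair numbered 3 (0.22). Whether MCM7 differs from the other subunits in its response was not tested. Without the block, leaving out control replicate 1 alone turned the sign of MCM2, MCM4, MCM5 and MCM7, to 0.09, 0.06, 0.07 and 0.20. That fit leaves ACSS2 shRNA replicate 1 without the control of the same number. With both libraries numbered 1 left out, the values were -0.31, -0.40, -0.30 and 0.02.

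CDC45 (gene ID 8318, chromosome 22, 19479294 to 19524658), the factor that binds the ring with GINS to form the active helicase, had the second largest difference of the 47 genes. It was at 32.7, 16.8 and 4.26 CPM in control and at 11.5, 5.97 and 3.97 CPM in ACSS2 shRNA libraries (-1.15, SE 0.23, adjusted p = 0.00337 with the block, and -1.33, SE 0.67, adjusted p = 0.421 without it). Nearly all of that difference came from the pairs numbered 1 and 2, with log2 differences of -1.47 and -1.42, against -0.09 in the pair numbered 3. GINS3 was at 30.7, 16.7 and 8.52 CPM against 11.4, 10.1 and 6.58 CPM (-0.88, SE 0.19, adjusted p = 0.00518 with the block). MCM10, which helps to start the activated helicase, was at 24.6, 11.6 and 3.23 CPM against 14.0, 6.03 and 2.61 CPM (-0.75, SE 0.17, adjusted p = 0.00828 with the block).

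The remaining GINS subunits and the activating kinase were less alike. GINS2 and GINS4 were called lower with the block (-0.77 and -0.56, adjusted p = 0.0172 and 0.0153), whereas GINS1 had a value of -0.13 that did not pass (adjusted p = 0.616). CDC7, the kinase that phosphorylates the loaded ring, had the smallest difference of the helicase group, at 18.1, 23.3 and 13.8 CPM in control and at 18.8, 18.3 and 16.0 CPM in ACSS2 shRNA libraries (-0.03, SE 0.15, adjusted p = 0.904 with the block). DBF4, its activating subunit, had a value of -0.25 (adjusted p = 0.209). Neither kinase subunit passed, and the sign of CDC7 turned with TPM as the input (0.06).

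Polymerase and primase genes gave 2 of 9 called lower with the block (median -0.29), beside 12.4% of tested genes. Both were the primase subunits that lay the RNA primer. PRIM2 was at 16.1, 15.1 and 11.2 CPM in control and at 10.7, 10.2 and 7.44 CPM in ACSS2 shRNA libraries, without overlap on CPM but with overlap on TPM. Its log2 fold change was -0.58 in both fits (SE 0.15, adjusted p = 0.0119 with the block, and SE 0.24, adjusted p = 0.349 without it). PRIM1 was at 13.8, 10.2 and 3.55 CPM against 7.79, 6.28 and 3.16 CPM (-0.61, SE 0.19, adjusted p = 0.0324 with the block). PRIM2 differed by about as much in each pair, with log2 differences of -0.57, -0.54 and -0.56, whereas PRIM1 had -0.79, -0.66 and -0.15.

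Catalytic and accessory subunits of the replicative polymerases did not pass. POLD1, the catalytic subunit of polymerase delta, was at 114.8, 72.0 and 51.4 CPM in control and at 63.3, 49.7 and 55.3 CPM in ACSS2 shRNA libraries (-0.44, SE 0.16, adjusted p = 0.0572 with the block). POLE, the catalytic subunit of polymerase epsilon, had a value of -0.21 (adjusted p = 0.346), and POLE2, its partner, -0.38 (adjusted p = 0.0971). POLA1 and POLA2, of polymerase alpha, had values of -0.18 and -0.29 (adjusted p = 0.434 and 0.227). POLD2, whose levels are given after its values were seen, was at 324.6, 218.3 and 225.9 CPM against 196.3, 204.5 and 217.8 CPM. Its groups did not overlap, but by less than 1 CPM, and they overlapped on TPM (-0.29, SE 0.14, adjusted p = 0.149 with the block). POLD3, the accessory subunit of polymerase delta, was at 37.2, 26.001 and 14.2 CPM against 36.2, 26.7 and 16.1 CPM, the only gene of the 47 with a value above 0 (0.06, SE 0.12, adjusted p = 0.781 with the block).

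Clamp and loader genes gave 4 of 6 called lower with the block (median -0.57). PCNA (gene ID 5111, chromosome 20, 5114953 to 5126622), the sliding clamp, was at 104.1, 73.2 and 39.8 CPM in control and at 44.0, 36.3 and 33.2 CPM in ACSS2 shRNA libraries. Control replicates 1 and 2 were above all ACSS2 shRNA libraries, and control replicate 3 was among them. The log2 differences within pairs were -1.23, -1.0 and -0.26, and the log2 fold change was -0.85 with the block (SE 0.16, adjusted p = 0.00262) and -0.94 without it (SE 0.32, adjusted p = 0.254). RFC3 and RFC4, small subunits of the complex that opens the clamp, were called lower with the block (-0.69, adjusted p = 0.00608, and -0.76, adjusted p = 0.0154). RFC3 was at 22.6, 23.9 and 10.8 CPM against 16.2, 11.8 and 7.32 CPM, and RFC4 at 25.1, 34.3 and 13.2 CPM against 11.4, 15.8 and 13.5 CPM. In RFC4 the whole difference lay in the pairs numbered 1 and 2 (-1.11 and -1.09), the pair numbered 3 having 0.04.

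RFC2 was called lower with the block (-0.44, adjusted p = 0.0288) and RFC5 was not (-0.38, adjusted p = 0.0875). RFC1, the large subunit of the loader, had the smallest difference of the group and did not pass. It was at 39.2, 50.7 and 36.2 CPM in control and at 32.7, 37.0 and 33.3 CPM in ACSS2 shRNA libraries (-0.28, SE 0.12, adjusted p = 0.104 with the block).

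Of the genes that handle single strands and Okazaki fragments, 2 of 5 were called lower with the block (median -0.54). RPA1 (gene ID 6117, chromosome 17, 1829971 to 1899554), the large subunit of the single-strand binding complex RPA, was at 147.6, 97.6 and 76.0 CPM in control and at 58.8, 42.5 and 54.3 CPM in ACSS2 shRNA libraries. Its groups did not overlap on CPM or on TPM, and the log2 differences within pairs were -1.32, -1.19 and -0.48. The log2 fold change was -1.01 with the block (SE 0.15, adjusted p = 0.000658) and -1.04 without it (SE 0.26, adjusted p = 0.139), the smallest adjusted p of the 47 genes in the fit without the block. DESeq2 without the block called RPA1 lower (-1.07, adjusted p = 0.0107) and no other gene of the 47, where it called 2.35% of tested genes lower. In the authors' deposited table RPA1 was likewise the one gene of the 47 with a q under 0.05 (log2 fold change -1.07, q = 0.0160), where 1.51% of the genes with a q were lower and 1.00% higher.

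LIG1, the ligase that seals Okazaki fragments, was at 74.3, 37.7 and 18.5 CPM in control and at 35.0, 25.6 and 14.8 CPM in ACSS2 shRNA libraries (-0.68, SE 0.15, adjusted p = 0.00637 with the block). RPA3, the small subunit of RPA, was at 10.5, 14.9 and 7.56 CPM against 7.46, 7.42 and 7.20 CPM, without overlap on CPM, with overlap on TPM, and not called (-0.54, SE 0.19, adjusted p = 0.0569 with the block). RPA2, the middle subunit, was at 53.6, 41.9 and 33.5 CPM against 45.1, 34.8 and 38.7 CPM (-0.11, SE 0.13, adjusted p = 0.582 with the block). FEN1, the flap nuclease, had a value of -0.31 that did not pass (adjusted p = 0.0983). RPA1 and RPA2, which act in 1 complex, thus had the largest and the smallest difference of these 5 genes.

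Fork chromatin and fork protection genes gave 5 of 7 called lower with the block (median -0.58). CHAF1B (gene ID 8208, chromosome 21, 36380145 to 36416827), a subunit of the chromatin assembly factor that places histones behind the fork, was at 32.3, 16.3 and 6.13 CPM in control and at 12.6, 8.17 and 4.78 CPM in ACSS2 shRNA libraries (-0.97, SE 0.18, adjusted p = 0.00259 with the block). CHAF1A, the large subunit of the same factor, had the smallest difference of the group. It was at 69.0, 34.6 and 16.7 CPM against 48.8, 29.2 and 18.9 CPM (-0.21, SE 0.14, adjusted p = 0.302 with the block). DTL, which directs CDT1 to degradation in S phase, was at 45.1, 27.9 and 13.5 CPM against 27.0, 14.9 and 10.3 CPM (-0.69, SE 0.14, adjusted p = 0.00371 with the block). CLSPN, which encodes claspin of the replication checkpoint, was at 22.2, 19.6 and 6.85 CPM against 14.0, 10.3 and 4.72 CPM (-0.72, SE 0.15, adjusted p = 0.00462 with the block). TIMELESS, a fork protection factor, and UHRF1, which keeps DNA methylation through replication, were called lower (-0.58 and -0.44, adjusted p = 0.0216 and 0.0332), and WDHD1 was not (-0.29, adjusted p = 0.176).

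**Figure D2:**
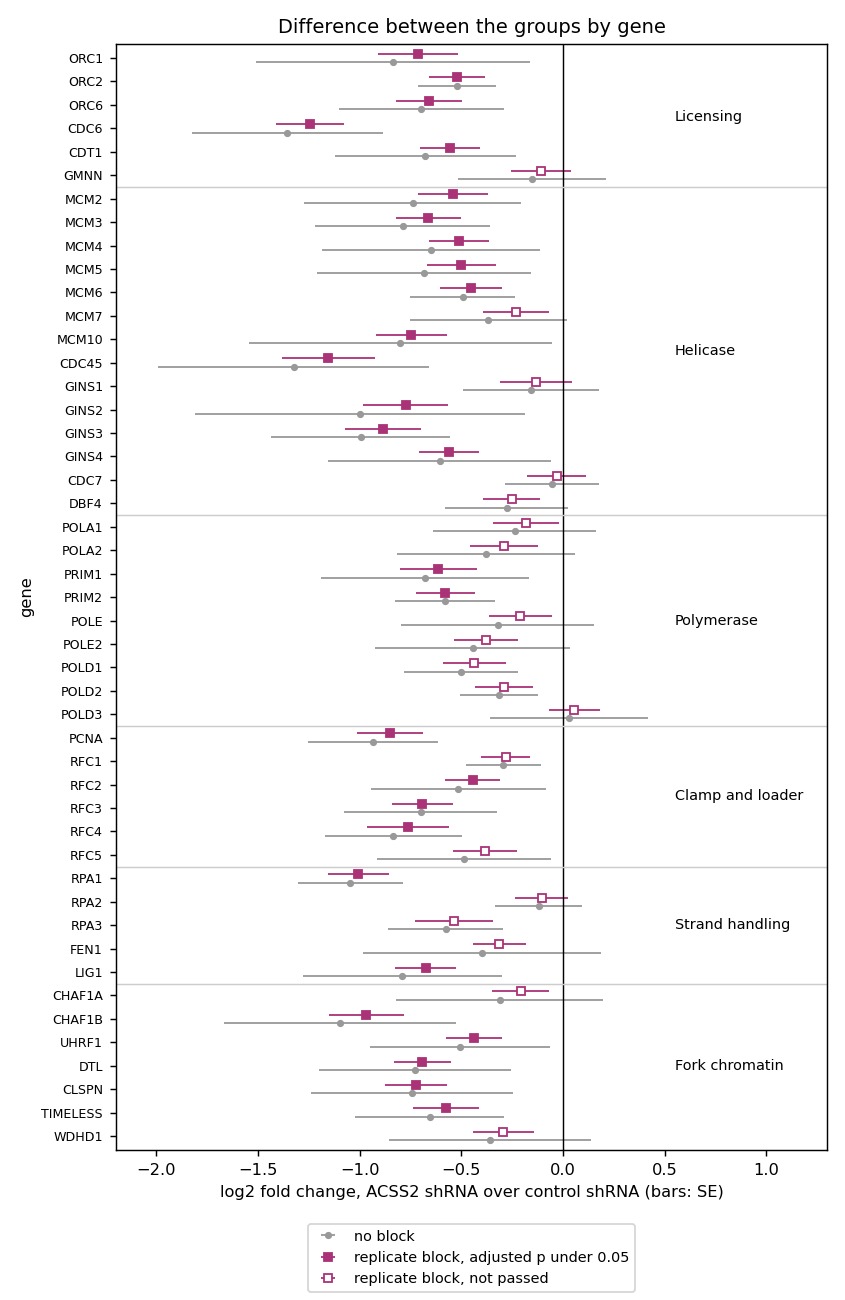
Log2 fold change of each of the 47 genes, ACSS2 shRNA over control shRNA (x axis), without the block (grey circles) and with it (squares, filled where the adjusted p was under 0.05), with bars of 1 SE. The points of both fits lie close together and 46 of 47 are below 0, while the bars without the block are wider for most genes.

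Of the 28 genes called lower with the block, 9 were also called in each of the 8 other ways of running the blocked comparison: CDC6, CDC45, GINS3, PCNA, RPA1, LIG1, CHAF1B, DTL and CLSPN. The other 19 lost the call in at least 1 of them. This count was not made over all tested genes, so whether these calls held more or less often than others is not known. Without the libraries numbered 1 the blocked count was 13 of 47, beside 10.6% of tested genes called lower in that fit. Without those numbered 2 it was 17, beside 7.35%, and without those numbered 3 it was 35, beside 12.2%. At least 2-fold lower and called were CDC6, CDC45 and RPA1, 3 of the 47 (6.38%), beside 1.98% of tested genes. Differences between the role groups were not tested.

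The difference between the groups was not the same in the 3 pairs of libraries. In the pair numbered 1 the ACSS2 shRNA library was below its control for 46 of 47 genes, beside 46.99% of tested genes, with a median log2 difference of -0.72, and CDC7 was the exception. In the pair numbered 2 it was below for 45, beside 50.07% of tested genes, with a median of -0.55, the exceptions being GINS1 and POLD3. In the pair numbered 3 it was below for 29, beside 47.55% of tested genes, with a median of -0.05, and values ran from -0.63 for CDC6 to 0.36 for POLE. Of the 3 pairs, the pair numbered 3 had the difference nearest to 0 for 40 of 47 genes (85.1%), beside 48.7% of tested genes. ACSS2 followed another order, with log2 differences of -2.72, -0.49 and -0.88. Each of these differences rests on 1 library against 1, so that whether the pairs differ cannot be tested.

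**Figure D3:**
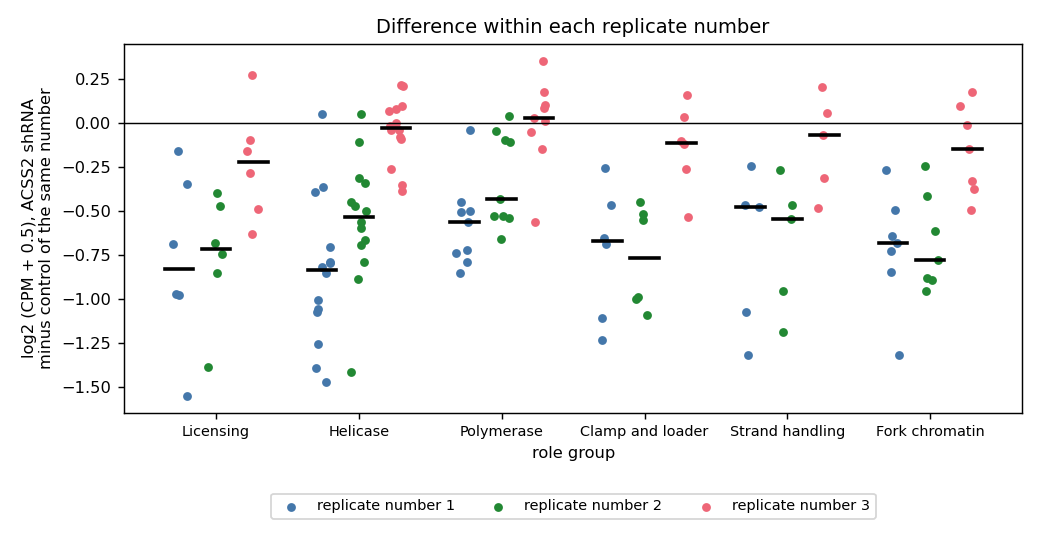
Log2 difference of CPM + 0.5 between the ACSS2 shRNA library and the control library of the same replicate number (y axis) for each gene, by role group (x axis); colours are the replicate numbers and black lines the medians. Points of the pair numbered 3 gather around 0 in every role group, with medians from -0.22 for licensing to 0.03 for polymerase genes, while those of the other pairs lie mostly below 0.

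These genes also differed widely between replicate numbers. In the fit with the block, 38 of 47 genes (80.9%) differed between replicate numbers at an adjusted p under 0.05, beside 38.7% of tested genes. Replicate 3 was below replicate 1 in both groups for 44 of 47 (93.6%), beside 39.0% of tested genes, the exceptions being POLD2, RFC1 and RFC4. The median log2 difference of replicate 3 from replicate 1 was -1.68 in control and -0.99 in ACSS2 shRNA libraries. GINS2 varied most over the 6 libraries, by 12.1-fold in TPM, followed by MCM10 with 9.05-fold and CDC45 with 7.61-fold, and POLD2 least, with 1.44-fold. The median over the 47 genes was 3.54-fold, beside 1.89-fold over all genes tested. The labels call the number a batch and say nothing of what it stands for.

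Summed over the 47 genes, TPM came to 2085, 1403 and 807.0 in control libraries and to 1362, 1054 and 812.4 in ACSS2 shRNA libraries. Control replicate 3 was thus the lowest library, next to ACSS2 shRNA replicate 3, and the groups overlapped. Per length, POLD2 was the most abundant of the transcripts in control cells, at 276.7 ± 56.7 TPM (SD, n = 3), followed by MCM7 at 128.7 ± 71.7 and PCNA at 99.1 ± 43.3 TPM. POLD2 was the only gene whose control range did not reach that of its neighbour in the order. The lowest were POLA1 at 3.83 ± 1.82, GINS1 at 4.53 ± 1.60, CLSPN at 4.96 ± 2.58 and MCM10 at 5.01 ± 3.98 TPM. There were 12 genes of at least 40 TPM and 9 under 10 TPM in control, and the median was 15.3 TPM, beside 14.5 TPM over all genes tested.

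Subunits that meet in a complex in equal numbers did not have equal mRNA levels per length. Of the summed TPM of MCM2 to MCM7, MCM7 made up 44.1% ± 3.69 in control and 49.1% ± 3.63 in ACSS2 shRNA libraries (SD, n = 3), and MCM6 made up 4.98% ± 1.51 and 4.75% ± 1.13. Among the GINS subunits the share of GINS2 moved with the replicate number, at 58.3, 47.9 and 27.8% in control and 53.8, 44.0 and 33.7% in ACSS2 shRNA libraries, while the group means were 44.7% ± 15.5 and 43.8% ± 10.0. The shares of the groups did not overlap for RPA1, RPA2, MCM3 and POLA1, and they were farthest apart in RPA. These were picked from all subunits of MCM2 to MCM7, GINS, RFC, RPA and polymerase alpha with primase. A share of all tested genes has no counterpart here. Shares within a complex add up to the whole, and RPA3 made up 9.74% in control and 9.52% in ACSS2 shRNA libraries. The separations of RPA1 and RPA2 are therefore not separate results. RPA1 made up 53.1, 46.1 and 47.3% of RPA mRNA in control and 35.4, 33.1 and 36.4% in ACSS2 shRNA libraries. RPA2 made up 39.9, 40.8 and 43.7% against 56.1, 56.0 and 54.4%. The log2 ratio of RPA1 to RPA2, a ratio within each library, was 0.23 ± 0.16 in control and -0.67 ± 0.09 in ACSS2 shRNA libraries (SD, n = 3), a difference of -0.90. This ratio was picked after the values were seen and for their separation, so it is given without a test.

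**Figure D4:**
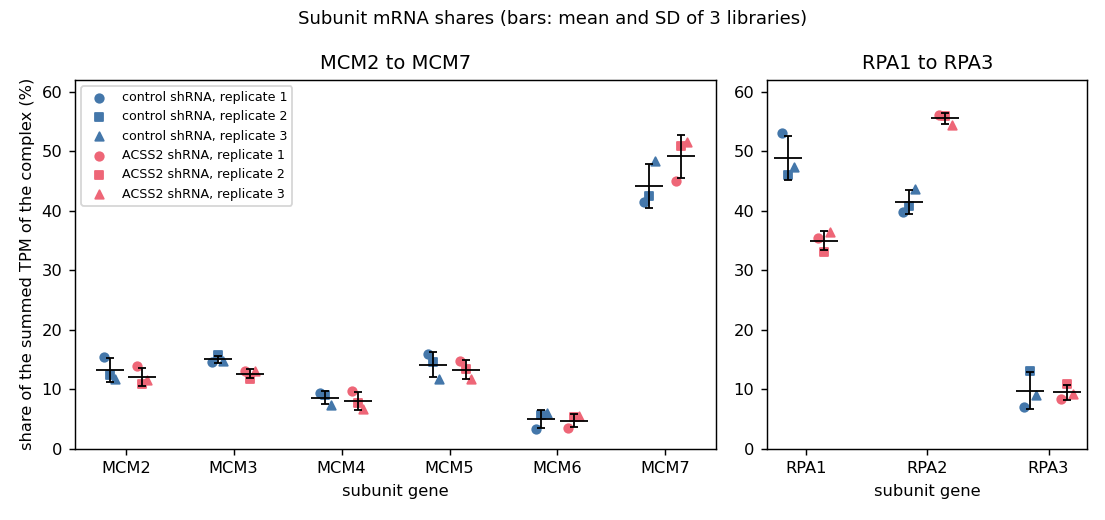
Share of each subunit in the summed TPM of MCM2 to MCM7 (left) and of RPA1 to RPA3 (right), in percent (y axis); symbols are libraries, and bars are the mean and SD of 3 libraries. RPA1 lies between 46.1 and 53.1% in control and between 33.1 and 36.4% in ACSS2 shRNA libraries, whereas the MCM shares of the groups are close or overlap except for MCM3.

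Genes with and without an E2F-type word in the promoter window had nearly the same median difference between the groups. With the block, 13 of the 21 genes with the word were called lower (median -0.54) and 12 of the 20 without it (median -0.55). Replicate numbers differed in 19 of the 21 and in 15 of the 20. Neither contrast was tested. A sequence of 6 bases, TGGGTC, was looked for in 3′ UTRs because 49.2% of the tested genes called lower with the block hold it there and 34.0% of those called higher. It was present for 16 of the 47 genes (34.0%), beside 36.1% of all tested genes, and for 11 of the 28 called lower. It was chosen after the data were seen. A gene was counted if any of its transcripts held the sequence, and the length of the 3′ UTR was not taken into account. These shares therefore cannot be read as a property of this sequence.

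Other genes of replication that are not among the 47 were taken from 3 lists. Of 48 further genes of origin firing, elongation and replication-coupled chromatin, 11 were called lower with the block, 1 was called higher and 36 did not pass (median -0.25). Over all tested genes 12.4% were called lower and 12.7% higher. ASF1B, a histone chaperone that feeds chromatin assembly, was at 127.4, 64.1 and 39.7 CPM in control and at 38.4, 26.3 and 23.6 CPM in ACSS2 shRNA libraries, without overlap on CPM but with overlap on TPM (-1.27, SE 0.16, adjusted p = 0.000235 with the block and 0.198 without it). DBF4B, a second activator of CDC7, and TICRR, which brings CDC45 to origins, were called lower (-0.74 and -0.72, adjusted p = 0.00119 and 0.00216). POLD4, the smallest subunit of polymerase delta, was the 1 called higher, from 46.1, 43.2 and 76.1 CPM to 63.9, 83.7 and 101.3 CPM (0.61, SE 0.13, adjusted p = 0.00459 with the block, 0.367 without it).

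Of 12 genes of nucleotide supply, 5 were called lower with the block, 1 higher and 6 did not pass (median -0.34), beside 12.4% of tested genes lower and 12.7% higher. Lowest in p were TK1, thymidine kinase (-0.84, adjusted p = 0.000889), RRM2, the regulated subunit of ribonucleotide reductase (-0.83, adjusted p = 0.00122), and TYMS, thymidylate synthase (-0.72, adjusted p = 0.00362). SAMHD1, which breaks down deoxynucleotides, was called higher, from 39.9, 29.3 and 25.3 CPM to 50.5, 38.3 and 38.0 CPM (0.44, SE 0.12, adjusted p = 0.0185 with the block, 0.440 without it). Of 20 mitotic genes all 20 were called lower with the block (median -0.78), beside 12.4% of tested genes, led by CDC20 (-1.16), TPX2 (-1.39) and CCNB2 (-0.94). None of the genes in these 3 lists passed in edgeR without the block, where 6 mitotic genes and ASF1B had an unadjusted p under 0.05. All of these were lower, and 7.11% of tested genes were lower at that level. DESeq2 without the block called ASF1B, TPX2 and PTTG1 lower (adjusted p = 0.0187, 0.0124 and 0.0124), PTTG1 being named after its values were seen. It called 2.35% of tested genes lower. The call of SAMHD1 was lost without the libraries numbered 2 or 3, and that of POLD4 without those numbered 2.

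In the pair numbered 3, where the median of the 47 replication genes was -0.05, the median of the mitotic genes was -0.44. All 20 mitotic genes were lower in the ACSS2 shRNA library there, against 29 of the 47 (61.7%) and 47.55% of tested genes. The pair is 1 library against 1, and the lists were chosen with earlier results of these data known. In the pairs numbered 1 and 2 the medians were -0.72 and -0.55 for the replication genes and -0.76 and -0.98 for the mitotic genes. The difference between the lists was not tested.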

How the data were processed

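RNA of 6 MDA-MB-231BR libraries was measured by mRNA sequencing on DNBSEQ. HISAT, Bowtie2 and RSEM were used per the submitters' processing notes; versions, annotation and strandedness are not stated in these notes or the labels, so reads of overlapping or antisense genes cannot be told apart. The deposited table holds expected counts per gene, which were rounded to whole counts, and TPM made by the authors. Its 6 FPKM columns were not used. The authors also deposited their own comparison, with a log2 fold change, a p-value and a q-value. Before use, 565 lines of spilled annotation text were left out and 26 symbols turned into dates were restored from gene IDs. Symbols and gene IDs of all 47 genes matched RefSeq; the gene spans of the deposited table equalled the RefSeq start for 1 of them, so gene positions are those of the deposited table, whose chromosome accessions are of GRCh38, and promoter positions are those of RefSeq on GRCh38.p14.

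Groups were compared by the quasi-likelihood test in edgeR 4.0.16, run in R 4.3.3 (TMM factors, filterByExpr with a minimum count of 10, 13003 genes tested, Benjamini-Hochberg over all of them, called at an adjusted p under 0.05). Standard errors are the log2 fold change divided by the root of F. Depth was between 15048275 and 18608104 counts per library, and the tests take counting error and the spread between libraries together. A batch tag in the labels runs from 1 to 3 in either group, and the same fit was run with that number as a block. Deviations from the group mean of same-numbered libraries correlated by 0.716, 0.494 and 0.740 across genes, above the minimum of 0.1 set for treating them as pairs. For unlike numbers the correlations ran from -0.662 to -0.00998. Deviations from a group mean cancel out within the group, so these values are tied to those of like numbers and add no separate support. Differences within pairs are of log2 (CPM + 0.5). The script was tested on simulated counts.

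Alternatives were DESeq2 1.42.0, RLE factors, no low-count filter, limma 3.58.1 on log2 (TPM + 1) and log2 (TPM + 0.5), and each library or replicate number left out. Leaving out both libraries of a number without the block, overlap of the groups on TPM, and the search for TGGGTC in GENCODE 3′ UTRs, were added after seeing the data. The search of promoters was run after the fits and was not among the planned comparisons. Levels per library are given for MCM2 to MCM7 and PCNA, and in each role group for the 3 genes with the smallest p with the block and the gene with the smallest log2 fold change in size. In the other lists the 3 genes with the smallest p with the block are named, and any called against the direction of most. Genes with levels outside this rule are said to be chosen after their values were seen. The 47 genes, the lists and the rule were chosen with earlier results of these data known.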

Additional observations from a re-analysis of the deposited data

How the results depend on the processing

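With 3 libraries a group and replicate numbers that differ widely, most calls of the 47 genes rest on treating the numbers as pairs. Pairing by the replicate block took the count called lower from 0 to 28 and the log2 fold change of ACSS2 from -1.05 to -1.31 (adjusted p = 0.00757). DESeq2 without the block called 1 gene lower, and DESeq2 with the block put ACSS2 at -1.38 (adjusted p = 0.126). No gene of the 47 was called higher in any alternative run. The cause of each change below was not tested, beyond the fewer libraries that a left-out library leaves.

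With the block, limma on log2 (TPM + 1) and on log2 (TPM + 0.5) called 15 and 15 genes lower, a scale that moved the median of all genes tested to 0.11 and 0.12 and the split of all calls from 1608 lower and 1657 higher to 1071 lower and 2302 higher with the first pseudocount. Leaving out a replicate number gave 13 (number 1), 17 (number 2) and 35 (number 3) called lower. On TPM, a scale added after the data were seen, 2 rather than 5 genes had no overlap and 23 rather than 28 were lower in all 3 pairs. The shares of tested genes fell too, from 9.63% to 6.41% lower without overlap and from 27.3% to 19.2% lower in all 3 pairs. Without the block the median log2 fold change of the 47 genes ran from -0.87 without ACSS2 shRNA replicate 1 to -0.13 without control replicate 1, where 29 of 47 were below 0. Both of these fits keep a library numbered 1 without its match in the other group. With both libraries numbered 1 left out, the median was -0.40 and 44 of 47 were below 0. The median with the block kept its sign in all 8 alternatives. Of the 48 further replication genes, 5 rather than 11 were called lower with the block without the libraries numbered 2. The share of tested genes called lower was 7.35% there, rather than 12.4%. In limma on TPM, 2 rather than 1 of the 48 were called higher. Over all tested genes, 2302 and 2289 rather than 1657 were called higher there, for the pseudocounts 1 and 0.5.

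Every value whose sign turned had not passed in the same fit. Without the block, leaving out libraries gave ranges of -1.55 to 0.15 for ORC1, -0.46 to 0.12 for GMNN, -1.16 to 0.092 for MCM2, -1.12 to 0.060 for MCM4, -1.08 to 0.070 for MCM5, -0.67 to 0.20 for MCM7, -1.62 to 0.025 for MCM10, -0.38 to 0.16 for GINS1, -1.65 to 0.12 for GINS2 and -1.14 to 0.046 for GINS4. Those of CDC7 were -0.22 to 0.12, of POLA1 -0.54 to 0.20, of POLA2 -0.70 to 0.19, of POLE -0.76 to 0.31, of POLD3 -0.28 to 0.39, of RFC5 -0.83 to 0.00254, of RPA2 -0.27 to 0.069, of FEN1 -1.03 to 0.32 and of CHAF1A -0.75 to 0.33. With the block, GMNN was at 0.013 and CDC7 at 0.10 without the libraries numbered 2, MCM7 at 0.042 and GINS1 at 0.00128 without those numbered 1, and POLD3 at -1.80e-05 without those numbered 3. In limma on TPM, with or without the block, CDC7 was at 0.062 and 0.066 and RPA2 at 0.0034 and 0.0036 for the pseudocounts 1 and 0.5.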
